A study of Mus musculus with 16 samples.

Results

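The 6 microRNAs described here, mmu-miR-362-5p, mmu-miR-362-3p, mmu-miR-500-3p, mmu-miR-532-5p, mmu-miR-532-3p and mmu-miR-188-5p (the mouse prefix mmu is left off from here on), are processed from hairpins inside the mouse gene Clcn5. They were taken by name from the 1247 mouse miRNAs on the array, and all 6 were among the 231 miRNAs that entered the tests. They were chosen by position in Clcn5 and by their measured difference between cultures with and without Th2 cytokines, so their values under those cytokines are given as a description, without a test. RNA came from RAW264.7, a transformed mouse line with macrophage-like properties that is grown as a single established line. Plates received plain medium (Media) or the so-called Th2 cytokines, interleukin-4 with interleukin-13 at 10 ng per ml, over 48 h (the Th2 group). After a wash, other plates of each kind were given murine interleukin-33 (IL-33) at 20 ng per ml for 4 h (Media_IL33 and Th2_IL33). The Media and Th2 plates are listed with the same 4 h at 0 ng per ml of IL-33. Each of these 4 groups had 1 array from each of 4 experiments, and the replicate numbers 1 to 4 follow the experiments named in the sample descriptions.

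Clcn5 encodes a chloride and proton exchanger of endosomes. A miRNA hairpin in an intron can be cut from the host transcript or from a transcript of its own, and several hairpins in a row can come from a common precursor. Dicer then releases a 5p and a 3p strand from each hairpin, one of which is usually kept in the Argonaute complex, and bases 2 to 8 of the kept strand, the seed, pair with messenger RNAs. IL-4 and IL-13 drive macrophages to the alternatively activated state through the transcription factor STAT6. IL-33 is an alarmin, released by damaged epithelium, that signals through the receptor ST2.

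The mature strands are shown because their seeds group the cluster across hairpins and because each array probe pairs with the 3′ end of a strand. Of the 6 miRNAs, 5 matched an entry among 1679 mature mouse miRNAs of RefSeq (GRCm38.p6). The sequences run 5′ to 3′, with the seed in capitals.
miR-362-5p: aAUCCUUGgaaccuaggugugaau
miR-500-5p: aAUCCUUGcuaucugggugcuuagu
miR-362-3p: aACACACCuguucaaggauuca
miR-500-3p: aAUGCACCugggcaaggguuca
miR-501-3p: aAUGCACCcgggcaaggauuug
miR-532-3p: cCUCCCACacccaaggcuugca
miR-188-5p: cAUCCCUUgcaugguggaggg
miR-362-5p and miR-500-5p share the seed AUCCUUG, and no other mature entry has it. miR-500-3p and miR-501-3p share the seed AUGCACC and are identical at 18 of 22 aligned bases. Within this set, then, each of those seeds is carried by strands of different hairpins. The miR-362-3p seed is also that of miR-329-3p, the miR-188-5p seed is also that of miR-7061-3p, and no other entry has the seed of miR-532-3p.

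In RefSeq (GRCm38.p6), 5 hairpins lie in Clcn5 on the minus strand of chromosome X. In the direction of transcription they are Mir532 (chrX:7248402-7248497), Mir188 (chrX:7247989-7248056), Mir362 (chrX:7241982-7242046), Mir501 (chrX:7241243-7241351) and Mir500 (chrX:7237683-7237774). They span 10.8 kb. Mir532 begins 70.9 kb downstream of the first listed Clcn5 start and Mir188 follows it by 345 bases. A gap of 5942 bases then leads to Mir362, which is followed after 630 bases by Mir501 and after another 3468 bases by Mir500. The hairpins all lie upstream of the second listed Clcn5 start, by 49.0 to 59.7 kb.

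All values are array intensities summed over the probes of a miRNA and divided by the array's own 75th percentile, called relative signal (1 is that percentile). Levels of different miRNAs cannot be set against each other on this scale, because probes differ in brightness. A miRNA was called well above background on an array where the scanner software marked at least 1 of its probes so. Log2 values were floored at a relative signal of 0.0353. The myeloid miRNAs miR-223-3p and miR-142a-3p were well above background on all 16 arrays and miR-142a-5p on 15, while 11 of 11 markers of liver, muscle, neurons, epithelium, red cells, endothelium, smooth muscle and lymphocytes were above background on none. The summed level of those 11 markers, with values below 0 counted as 0, was 0.0210 to 0.0643 in Media, 0.0360 to 0.0527 in Th2, 0.0321 to 0.0603 in Media_IL33 and 0.0240 to 0.0400 in Th2_IL33. The summed myeloid markers were at 1.21 to 1.74 in Media, 1.37 to 2.15 in Th2, 1.21 to 1.47 in Media_IL33 and 1.36 to 2.19 in Th2_IL33, but they parted: miR-223-3p averaged 0.444 in Media and 0.980 in Th2 (0.408 and 0.875 with IL-33), and miR-142a-3p 0.850 and 0.762 (0.798 and 0.780 with IL-33). Across the 231 miRNAs, Media replicates 1 and 3 and Th2_IL33 replicate 2 stood apart, with a highest correlation to any other array of 0.910 to 0.968 against 0.986 to 0.997 for the other 13. Fewer cells with a miRNA and less of it per cell cannot be told apart in RNA of whole cultures.

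Both strands of miR-362, miR-500-3p and miR-532-5p were low in medium and higher on every array with Th2 cytokines, with or without IL-33. miR-532-3p was above background only on arrays with Th2 cytokines. miR-188-5p, from the hairpin beside Mir532, was bright on all 16 arrays and slightly lower, on average, with the cytokines. IL-33 moved none of the 6 past the threshold. In medium, though, miR-532-3p was at the floor throughout and miR-362-5p was well above background on no array. By the call used for all miRNAs (limma, Benjamini-Hochberg adjusted p under 0.05), 4 of the 6 were called in Th2 with Media, where 9.52% of all 231 were called (8.66% as higher). In Th2_IL33 with Media_IL33 the same 4 were called, again beside 9.52% of all 231 (8.23% as higher). Every array of the Th2 group lay above every Media array for 5 of the 6, beside 9.52% of all tested miRNAs. With IL-33 in both groups this held for 5 of the 6, beside 14.3% of all. Because this contrast chose the 6 miRNAs, these counts only describe them.

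**Figure D1:**
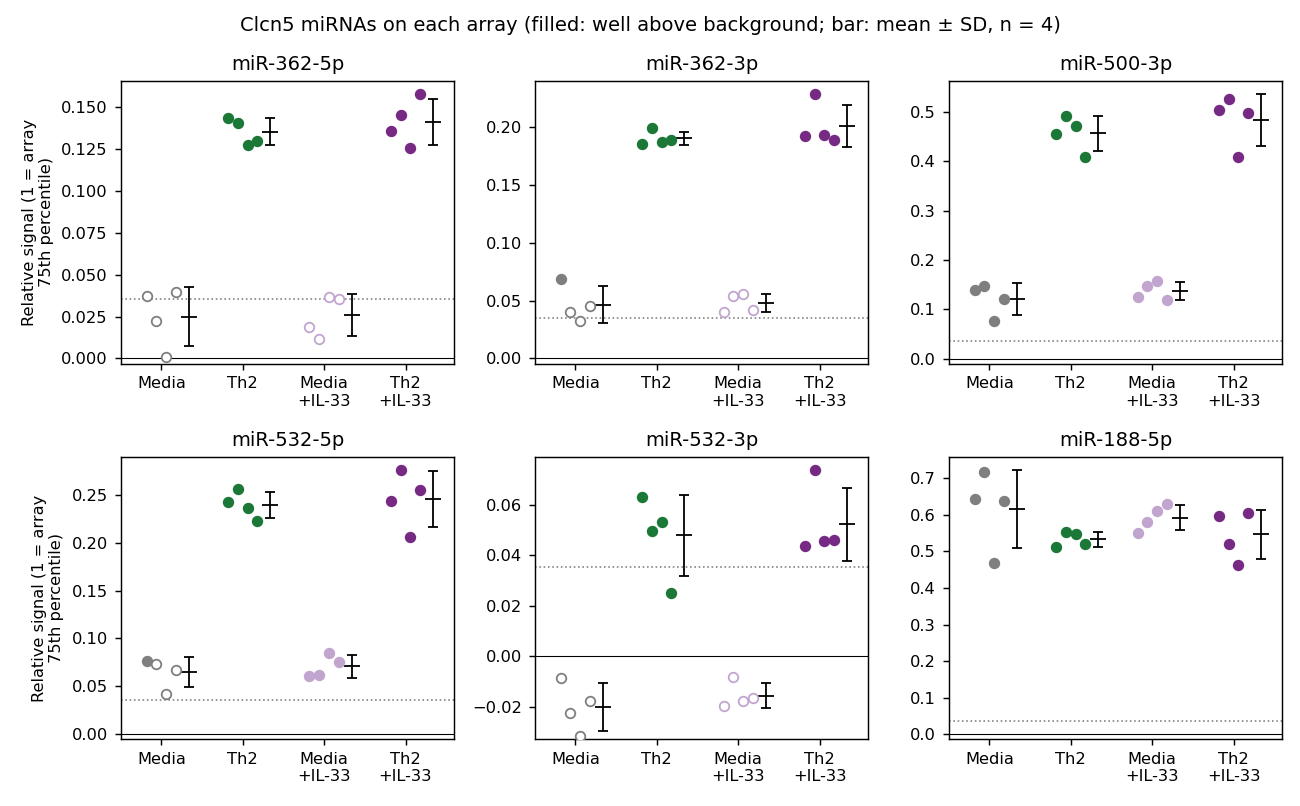
Relative signal of each of the 6 miRNAs (vertical axes, linear, 1 being the 75th percentile of an array) on every array of the 4 groups, in replicate order from left to right; filled points were well above background, open points were not, bars give the mean ± SD of 4 arrays and the dotted line is the floor of 0.0353. The groups with and without Th2 cytokines separate for all miRNAs but miR-188-5p, and arrays with and without IL-33 overlap.

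miR-362-5p had a relative signal of 0.0373, 0.0226, 0.000672 and 0.0395 on the Media arrays, and of 0.144, 0.141, 0.127 and 0.130 on the Th2 arrays. With IL-33 it was 0.0187, 0.0119, 0.0369 and 0.0357 in medium and 0.136, 0.145, 0.125 and 0.158 with the cytokines. No medium-grown array was well above background and every cytokine-treated array was, so the groups did not overlap and the medium level is only a bound. The group means were 0.0250 ± 0.0179 (SD, n = 4) in Media, 0.135 ± 0.00799 in Th2, 0.0258 ± 0.0125 in Media_IL33 and 0.141 ± 0.0138 in Th2_IL33. A miRNA that is dim on every array of a group has its fold given as "at least": the bright group's mean log2 value is set against, per dim array, the higher of its own signal and the lowest signal well above background there. On that rule miR-362-5p was at least 2.58-fold higher in Th2 than in Media and at least 2.71-fold higher in Th2_IL33 than in Media_IL33. The fitted log2 differences were 1.88 ± 0.096 (SE) and 1.98 ± 0.096, with 2 Media and 2 Media_IL33 arrays set to the floor, so these sizes depend on it.

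miR-362-3p, the other strand of that hairpin, was at 0.0689, 0.0401, 0.0321 and 0.0453 in Media and at 0.186, 0.199, 0.188 and 0.189 in Th2. With IL-33 the values were 0.0402, 0.0536, 0.0561 and 0.0419 in medium and 0.193, 0.229, 0.194 and 0.189 with the cytokines. Only replicate 1 of the 8 medium-grown arrays, in Media, was well above background, and again no cytokine-treated array reached down to the medium range. The means were 0.0466 ± 0.0159 (SD, n = 4) and 0.191 ± 0.00599 without IL-33, and 0.0480 ± 0.00809 and 0.201 ± 0.0184 with it. The Th2 group was 4.15-fold above Media with Media replicate 3 set to the floor, or 3.39-fold with the dim arrays raised to the lowest signal above background, and Th2_IL33 was at least 3.76-fold above Media_IL33. The log2 differences were 2.05 ± 0.18 (SE) and 2.08 ± 0.18. Since the medium level of the 5p strand is only a bound, the sizes of the differences of the strands were not compared.

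miR-500-3p was measured above background on all 16 arrays. It stood at 0.138, 0.148, 0.0758 and 0.122 in Media and at 0.456, 0.492, 0.473 and 0.409 in Th2. With IL-33 it stood at 0.125, 0.148, 0.158 and 0.119 in medium and at 0.504, 0.526, 0.408 and 0.498 with the cytokines. The lowest cytokine-treated array was thus far above the highest medium-grown one. Media had a mean of 0.121 ± 0.0320 (SD, n = 4) and Th2 one of 0.457 ± 0.0353, a 3.89-fold difference (log2 1.96 ± 0.18, SE). Th2_IL33, at 0.484 ± 0.0521, was 3.53-fold above Media_IL33 (log2 1.82 ± 0.18).

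miR-532-5p was at 0.0762, 0.0735, 0.0419 and 0.0668 in Media, where 1 array was well above background, and at 0.242, 0.256, 0.236 and 0.223 in Th2. With IL-33 it was at 0.0604, 0.0621, 0.0852 and 0.0751 in medium, all well above background, and at 0.244, 0.276, 0.207 and 0.255 with the cytokines. The groups with and without cytokines did not overlap. The means were 0.0646 ± 0.0157 (SD, n = 4) in Media, 0.240 ± 0.0138 in Th2, 0.0707 ± 0.0117 in Media_IL33 and 0.245 ± 0.0292 in Th2_IL33. Th2 was 3.80-fold above Media as measured (3.74-fold with the dim arrays raised) and Th2_IL33 was 3.49-fold above Media_IL33, or 1.93 ± 0.18 (SE) and 1.80 ± 0.18 on the log2 scale.

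miR-532-3p was below the floor on every medium-grown array, at -0.00847, -0.0227, -0.0315 and -0.0177 in Media and at -0.0197, -0.00838, -0.0176 and -0.0167 in Media_IL33. A value below 0 is a signal under the subtracted background. The Th2 arrays gave 0.0633, 0.0497, 0.0534 and 0.0253 and the Th2_IL33 arrays 0.0437, 0.0738, 0.0458 and 0.0460, all 8 of them well above background. Both medium groups sit at the floor, and so does Th2 replicate 4, so the fitted log2 differences of 0.48 ± 0.18 (SE) and 0.53 ± 0.18 depend on where the floor lies (0.11 and 0.14 with the floor at the 5th percentile of detected signals) and no fold is given. By probe the picture was sharper. The array carries 4 nested probes for this strand, shown because only the longest passed background (5′ to 3′, with the bases added to the shortest probe in capitals).
miR-532-3p probe of 12 bases: tgcaagccttgg
miR-532-3p probe of 15 bases: tgcaagccttggGTG
The 15-base probe had a relative signal of 0.00890 ± 0.00599 (SD, n = 4) in Media, 0.0624 ± 0.00923 in Th2, 0.0108 ± 0.00254 in Media_IL33 and 0.0657 ± 0.00797 in Th2_IL33. It was well above background on the 8 cytokine-treated arrays and on no other. The 12-base and 13-base probes were below 0 on average in all 4 groups. The sum over probes thus adds negative values to the 15-base signal. The 14-base probe was above background on no array. It was higher, though, on every cytokine-treated array (lowest 0.00280) than on every medium-grown one (highest -0.00181). Taking the brightest probe of each miRNA in place of the sum, a choice made after seeing the data, gave log2 differences of 1.13 ± 0.097 (SE) and 1.21 ± 0.097 for miR-532-3p. These too depend on the floor, at which every medium-grown array of that probe lay.

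**Figure D2:**
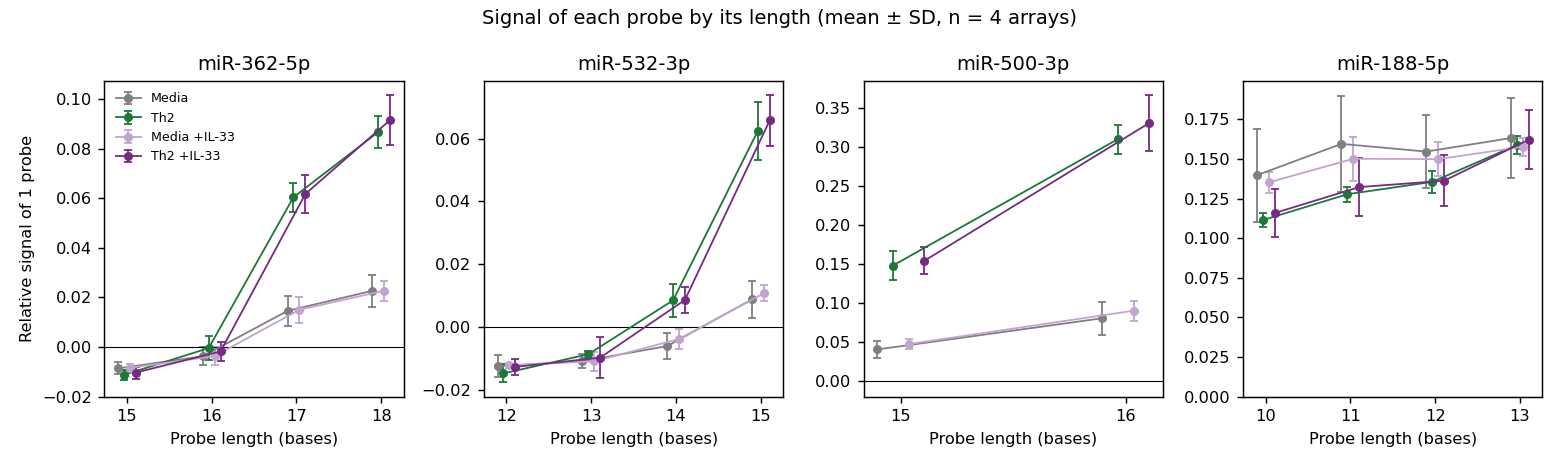
Relative signal of single probes (vertical axes, mean ± SD of 4 arrays) against the length of the probe in bases, for 4 of the miRNAs; colours are the groups, and points are shifted sideways to be seen apart. The signal of miR-362-5p and miR-532-3p comes from the longest probes, with 0.0624 in Th2 against 0.00890 in Media for the 15-base miR-532-3p probe, while all 4 miR-188-5p probes are bright.

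Signal above background was likewise limited to the longer probes of miR-362-5p. Its 17-base and 18-base probes were well above background on the 8 cytokine-treated arrays, while its 15-base and 16-base probes were above background on none. The 18-base probe averaged 0.0227 ± 0.00657 (SD, n = 4) in Media and 0.0866 ± 0.00651 in Th2. For miR-500-3p the 16-base probe was above background on all 16 arrays, at 0.0804 ± 0.0210 in Media and 0.310 ± 0.0184 in Th2, a log2 difference of 1.99.

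miR-188-5p showed no such pattern, although its hairpin is only 345 bases from Mir532. It stood at 0.644, 0.718, 0.467 and 0.638 in Media and at 0.513, 0.554, 0.547 and 0.520 in Th2. With IL-33 it stood at 0.552, 0.579, 0.611 and 0.629 in medium and at 0.596, 0.520, 0.464 and 0.606 with the cytokines. The groups overlapped in both contrasts, and the cytokine-treated array was the higher in 1 of 4 experiments in each. The log2 differences were -0.19 ± 0.13 (SE) in Th2 with Media and -0.12 ± 0.13 in Th2_IL33 with Media_IL33. Single arrays moved them: the first was -0.32 without Media replicate 3, -0.11 without Media replicate 2 and -0.34 without the 3 arrays that stood apart, and the second was -0.05 without Th2_IL33 replicate 3. Its probes are short and rich in G and C, and they are shown because the difference varied along them (capitals as above).
miR-188-5p probe of 10 bases: ccctccacca
miR-188-5p probe of 13 bases: ccctccaccaTGC
All 4 were well above background on all 16 arrays. The 10-base probe went from 0.140 ± 0.0295 (SD, n = 4) in Media to 0.111 ± 0.00451 in Th2, a log2 difference of -0.30, and the 11-base and 12-base probes differed by -0.30 and -0.18. The 13-base probe, at 0.163 ± 0.0253 and 0.159 ± 0.00566, differed by -0.03. In Th2_IL33 with Media_IL33 the differences were -0.23, -0.19, -0.14 and 0.03 from the shortest to the longest probe. No mature entry other than miR-188-5p held a full match to any of these probes, and hybridisation of other RNAs to the shorter ones was not tested.

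**Figure D3:**
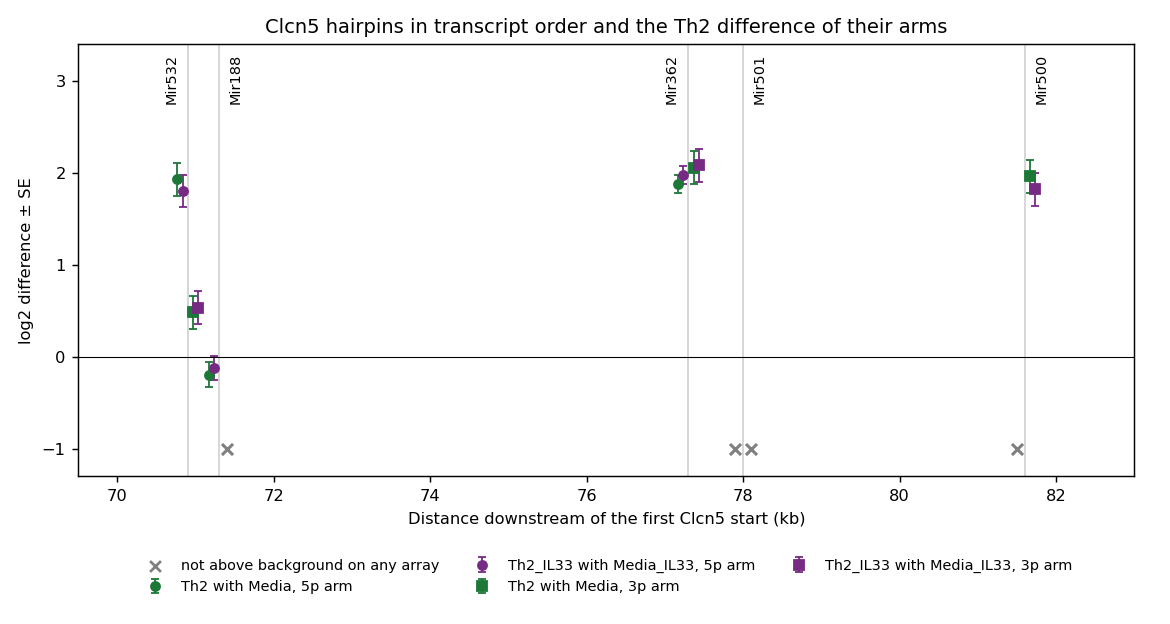
Log2 difference ± SE with Th2 cytokines (vertical axis) against the distance of each hairpin downstream of the first Clcn5 start in kb (horizontal axis); circles are 5p and squares 3p strands, set slightly left and right of the hairpin's line, and crosses, drawn at the bottom with no value, are strands above background on no array. Strands near 2 on the log2 scale lie at both ends of the 10.8 kb, and miR-188-5p lies below 0 beside miR-532-5p.

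The 5 hairpins have 4 further strands on the array. miR-188-3p, miR-500-5p, miR-501-5p and miR-501-3p were well above background on none of the 16 arrays. Each of Mir188 and Mir500 was thus read from 1 strand only, the 5p strand of the first and the 3p strand of the second, and Mir501 from neither. The 15-base probe of miR-501-3p, the strand that shares its seed with miR-500-3p, was higher on every cytokine-treated array (lowest 0.00648) than on every medium-grown one (highest 0.00344) without passing background anywhere. Its pairing with miR-500-3p, from which miR-501-3p differs at 4 bases, was not tested.

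Arms can be compared within a hairpin by how the log2 signal of the 3p strand minus that of the 5p strand moves between groups; the value itself also holds the brightness of the probes. In medium it could not be read for either hairpin: miR-362-5p was well above background on none of the 8 arrays and at the floor on 4 of them, and miR-532-3p was at the floor on all 8. With Th2 cytokines it averaged 0.49 ± 0.084 (SD, n = 4) without and 0.51 ± 0.18 with IL-33 for miR-362. For miR-532 it averaged -2.28 ± 0.31 without and -2.26 ± 0.28 with IL-33, with the 3p strand of Th2 replicate 4 set to the floor. IL-33 thus moved the arm difference in cytokine-treated cells by 0.02 for miR-362 (exact two-sided permutation test, p = 0.857) and by 0.02 for miR-532 (exact p = 0.943). Both had an adjusted p of 0.943 over 4 exact tests, whose smallest possible p was 0.0286; the other tests were those in medium, which are void for the reason given.

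The choice of the 6 miRNAs did not use the response to IL-33, which could be tested where a miRNA stood above the floor. In Media_IL33 with Media none of the 6 was called by limma, beside 1.73% of all 231. miR-532-3p was at the floor on all 8 arrays, so it could not be called and has no interval. Among the others the adjusted p was 1 for each (limma), and none had an unadjusted p under 0.05. miR-362-5p was well above background on none of the 8 arrays and miR-362-3p on 1, so for them the absence of a call says little. Log2 differences of the 6 ran from -0.04 to 0.22, with 95% intervals between -0.33 and 0.61. The largest difference was that of miR-500-3p, 0.22 ± 0.18 (SE), which was higher with IL-33 in 1 of 4 experiments and came to 0.01 without Media replicate 3. That array was the lowest of its group for all 6 miRNAs. Arrays were hybridised on 2 slides, and the direction was not the same on both. For miR-362-3p, miR-500-3p and miR-532-5p the differences were 0.28, 0.31 and 0.44 within slide 1 (3 arrays against 2) and -0.57, -0.03 and -0.31 within slide 2 (1 against 2), none of them called.

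In Th2_IL33 with Th2 none of the 6 was called either (adjusted p = 1 for each, limma, 0 of 6 at an unadjusted p under 0.05), beside 1.73% of all. The log2 differences ran from 0.03 to 0.08 and the 95% intervals from -0.35 to 0.47. For miR-362-3p, miR-500-3p, miR-532-5p and miR-188-5p they leave out a change by a full log2 unit in either direction. The fit shares 1 spread over the 4 groups, so medium arrays at the floor narrow the intervals of miR-362-5p and miR-532-3p. Those intervals are not read in this way, and Th2 replicate 4 of miR-532-3p was itself at the floor. miR-362-3p was higher with IL-33 in 4 of 4 experiments, by 0.08 ± 0.18 (SE). Within slide 2, which held 1 Th2 and all 4 Th2_IL33 arrays, the differences were 0.06 to 0.53, the highest being that of miR-532-3p. The interaction is the IL-33 response with Th2 cytokines minus that without. It was between -0.14 and 0.10 for the 6 (adjusted p = 0.995 for each, limma). Leaving out miR-532-3p, the 95% intervals lay between -0.69 and 0.56. The interaction of miR-532-3p could not be tested, because the floor set the response in medium to 0. Its interaction of 0.05 only repeats its Th2_IL33 with Th2 difference. miR-362-5p was well above background on 0 of 8 medium-grown arrays and miR-362-3p on 1, so their interactions say little. No miRNA separated the 2 IL-33 groups from their controls among the 6, beside 2.16% of all 231 that were higher on every array in Media_IL33 than in Media and 3.9% in Th2_IL33 than in Th2. The interaction was called for 0% of the 231 miRNAs, with 5 of 231 and 0 of the 6 at an unadjusted p under 0.05. That count includes miR-532-3p, for which the interaction could not be tested.

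**Figure D4:**
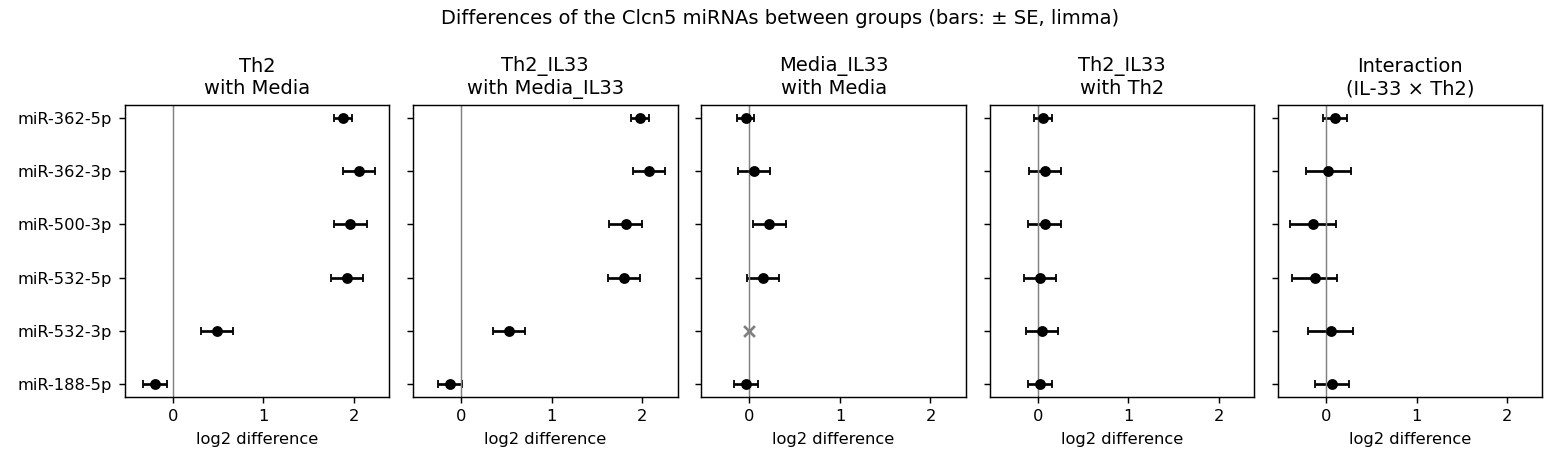
Log2 difference ± SE (horizontal axes) of the 6 miRNAs in the 4 contrasts and in the interaction, from limma on all 231 miRNAs; the cross marks miR-532-3p with every array at the floor. The 4 miRNAs at 1.80 to 2.08 in both contrasts with Th2 cytokines lie between -0.14 and 0.22 in the other panels.

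The differences with Th2 cytokines were read against the slides in the same way. In Th2 with Media, miR-362-5p, miR-362-3p, miR-500-3p and miR-532-5p differed by 1.90, 2.25, 2.09 and 2.05 within slide 1 (3 arrays against 3) and by 1.80, 1.45, 1.57 and 1.55 within slide 2 (1 against 1). In Th2_IL33 with Media_IL33 slide 2 held 4 arrays against 2 and gave 2.00, 2.11, 1.83 and 1.99. Without the 3 arrays that stood apart they differed by 1.86, 2.16, 1.77 and 1.77 in the first contrast and by 1.96, 2.02, 1.78 and 1.74 in the second. A different background correction was normexp on the mean spot signals, with a constant of 50 intensity units added to each spot. The differences of these 4 miRNAs were then 0.26, 0.52, 0.86 and 0.57 in the first contrast. In the second they were 0.41, 0.67, 0.93 and 0.68, and each was still called. An added constant by itself shrinks log2 differences of dim signals. How much of the drop came from the constant and how much from the correction was not tested. Averaging the log2 values of a miRNA's probes in place of summing the probes gave 0.41, 1.14, 1.86 and 1.34 in the first contrast. In the second it gave 0.43, 1.22, 1.79 and 1.34. For miR-362-5p such an average gives full weight to the 15-base and 16-base probes, which were above background on no array. For miR-362-3p and miR-532-5p, both of the 2 probes were well above background on every cytokine-treated array. The dimmer probe of each was so on no medium-grown array. Why the values of these miRNAs were smaller was not tested. The median over the 6 miRNAs was 1.90 in Th2 with Media, beside 0.06 over all 231, and 1.81 in Th2_IL33 with Media_IL33, beside 0.08. With IL-33 the medians were 0.02 in medium, beside 0.02 over all, and 0.05 with cytokines, beside 0.00147.

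The 4 miRNAs that moved together with the cytokines, miR-362-5p, miR-362-3p, miR-500-3p and miR-532-5p, had correlations of 0.972 to 0.992 with each other over the 16 arrays, in log2 signal. After the mean of each group was taken off, the correlations were 0.237 to 0.861, the highest being that of miR-500-3p with miR-532-5p. Media replicate 3 was the lowest of its group for both. No value without it or over other miRNAs is given for that pair, so 0.861 is not read as particular to these hairpins. The lowest was that of miR-362-5p with miR-362-3p, where 2 Media and 2 Media_IL33 arrays of miR-362-5p were at the floor. miR-188-5p went with miR-500-3p at -0.30 over the arrays but at 0.81 within groups, where the median over 230 miRNAs with miR-188-5p was 0.52; without Media replicate 3 the value was 0.50. These are descriptions over arrays that share groups, experiments and scaling.

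The miRNAs whose profile was most like the mean of the 6 were ranked by Pearson correlation over the 16 arrays among 225 others. They were miR-99a-5p (0.986), miR-511-3p (0.980), miR-378d (0.975), miR-378a-3p (0.972) and miR-378b (0.971). miR-99a-5p averaged 2.04 ± 0.513 (SD, n = 4) in Media, 4.23 ± 0.239 in Th2, 2.01 ± 0.156 in Media_IL33 and 4.43 ± 0.400 in Th2_IL33. miR-511-3p, which is also intronic, with the mannose receptor gene Mrc1 as its host, was at -0.00707 ± 0.00199 in Media and -0.00662 ± 0.00274 in Media_IL33, and at 0.234 ± 0.0133 in Th2 and 0.249 ± 0.0306 in Th2_IL33. miR-378a-3p went from 0.158 ± 0.0280 in Media to 0.330 ± 0.0492 in Th2 and from 0.138 ± 0.0154 in Media_IL33 to 0.318 ± 0.0457 in Th2_IL33. All 5 were, like the 4 Clcn5 miRNAs, higher on average in both groups with Th2 cytokines. The mean profile was itself higher on every cytokine-treated array than on any medium-grown one, so the ranking selects for this.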

How the data were processed

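RNA of 16 cultures was hybridised to 1-colour Agilent mouse miRNA arrays, and per the file headers the deposited intensity values are Feature Extraction 10.7.3.1 processed signals, with background subtracted. The submitters' processing notes name Partek 6.6 and RMA. Their deposited table of probe intensity values served as an alternative; its columns have a median of 0.428 with 1456 of 3105 probes below 0 and run up to 114686, so the scale is linear, and its centring is not stated. The 6 miRNAs, the lists and the tests were chosen with earlier results of these data known.

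Control spots and spots marked as outliers were left out, spots were averaged per probe and probes summed per miRNA. Sums were divided by the array's 75th percentile (taken over 178 miRNAs that all arrays detected) (scale 427.0 to 653.9), floored at the 1st percentile of detected signals, and log2 transformed. limma 3.58.1 (R 4.3.3; lmFit, eBayes, 12 residual degrees of freedom) was fitted to the 231 miRNAs detected on every array of at least 1 group, with Benjamini-Hochberg adjustment and a threshold of 0.05; arm differences used exact permutation tests. The fit was tested on simulated log2 values, to which the floor and the probe sums were not applied. No depth applies to intensities; the number of arrays limits the precision, and the median SE was 0.18. The likest miRNAs were the 5 with the highest correlation to the mean of the 6. Markers listed as miR-142 and miR-126 were matched to the array's miR-142a and miR-126a. The labels' descriptions name the experiment of each sample, and this pairs the arrays across groups by number: same-numbered arrays had a median residual correlation of 0.112 (24 pairs, -0.694 to 0.728), others -0.05 (72 pairs). Alternatives changed background correction, scaling, floor, outlier spots, probe summary, array weights, slide, experiment block and arrays left out.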

Additional observations from a re-analysis of the deposited data

Results flagged for a closer look

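In 2 of the 24 combinations of miRNA and group, 1 array stood far from the other 3; chance gives about 1 in 20. For miR-362-3p in Th2_IL33, replicate 2 (0.229) was separated from the nearest array by 0.890 of the group's whole range. For miR-532-3p in Th2_IL33, replicate 2 (0.0738) was separated by 0.922 of the range. Both are the same array, which is 1 of the 3 that stood apart over all tested miRNAs. Without Th2_IL33 replicate 2 and the other arrays that stood apart, the Th2_IL33 with Media_IL33 differences were 2.02 for miR-362-3p and 0.36 for miR-532-3p.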

How the results depend on the processing

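The number of the 6 miRNAs called stayed within 1.5 times its value under every alternative run: 3 to 6 in Th2 with Media, 4 to 5 in Th2_IL33 with Media_IL33, and 0 in the IL-33 contrasts and the interaction. With the experiment as a block the called miRNAs were the same 4 in both contrasts with Th2 cytokines, and 0 elsewhere; the block changed no call. In Th2 with Media, miR-362-3p was not called within slide 2 (1.45), where 1 array stood against 1 and the other groups on that slide supplied the spread. miR-532-3p was called in that contrast with the brightest probe (1.13), with mean log2 probes (0.15), within slide 1 (0.65), with array weights (0.63) and without Th2 replicate 4 (0.65), and miR-188-5p was called with array weights (-0.28). In Th2_IL33 with Media_IL33, miR-532-3p was called with the brightest probe (1.21), normexp (0.34), mean log2 probes (0.17), the slide as a block (0.63) and array weights (0.39). Scaling on all miRNAs moved the median of all 231 to 0.10 in both IL-33 contrasts. A test of all 1247 miRNAs was not run, because 866 had no spread within any group, as values at the floor do. miR-362-5p and miR-532-3p were dim in medium, so their differences there are limited by the background.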
